A study of Mus musculus with 14 samples.

Results

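The genes described are 9 members of the heme synthesis pathway of the mouse, taken by gene symbol from a deposited table of 49583 genes: the erythroid and housekeeping forms of its entry enzyme (Alas2 and Alas1), 6 later enzymes (Alad, Uros, Urod, Cpox, Ppox and Fech) and the mitochondrial carrier Slc25a38. All 9 had a row. The study sequenced total RNA of 14 samples from sorted C57BL/6 mouse cells, all of wild type genotype, in 7 groups of 2. Ter cells (Ter-119+ CD45- Lin-) came from the spleen of tumour-bearing mice and from embryonic liver at E14.5, and a control of CD45+ Ter-119- cells came from the spleen of tumour-bearing mice. The bone marrow of wild type mice gave hematopoietic stem cells (HSC, c-Kit+ Sca-1+ Lin-), common lymphoid progenitors (CLP, the same gate with IL-7R+), and 2 further populations, one labelled MEP (megakaryocyte-erythroid progenitors) and one CMP (common myeloid progenitors). Their labelled gates are c-Kit+ FcγRlo Lin- IL-7R- Sca-1-, with CD34+ for MEP and CD34- for CMP. The labels give a sorted purity above 98% and name neither the tumour nor the animal behind a sample, so p-values measure only the spread between these samples.

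Heme is made in a chain of steps that starts and ends in the mitochondrion. ALAS joins glycine, brought in by SLC25A38, to succinyl-CoA, and this step limits the rate of the pathway. Alas1 serves most cells for cytochromes and other heme proteins, whereas Alas2, on the X chromosome, is the form that erythroid precursors use to supply hemoglobin. ALAD condenses 5-aminolevulinic acid into porphobilinogen in the cytosol, UROS closes the ring and UROD trims its side chains. CPOX and PPOX oxidise the product in the mitochondrion, and FECH inserts iron. GATA1 and KLF1 are transcription factors of erythroid cells that bind GATA and CACCC sequences.

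The windows before the start of transcription are shown for the paired entry enzymes, whose levels are set against each other further on, and for the later enzymes in which a GATAA match was found. They run from 250 bases before to 10 bases after a RefSeq start (GRCm38.p6), are written 5′ to 3′ on the gene's strand, and carry GATAA and CACCC matches in capitals, where TTATC and GGGTG are the same motifs on the other strand. Alas2 is at chrX:150547167-150547426 (+), Alas1 (the second of its starts along the gene) at chr9:106247721-106247980 (-), Uros at chr7:133709286-133709545 for its first start and chr7:133702491-133702750 for its second (both -), and Cpox at chr16:58669958-58670217 (+).
Alas2: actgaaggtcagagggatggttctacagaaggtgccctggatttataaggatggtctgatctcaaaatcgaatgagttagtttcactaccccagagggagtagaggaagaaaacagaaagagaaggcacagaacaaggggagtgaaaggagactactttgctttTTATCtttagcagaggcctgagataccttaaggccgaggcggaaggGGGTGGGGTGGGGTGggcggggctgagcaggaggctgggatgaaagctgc
Alas1: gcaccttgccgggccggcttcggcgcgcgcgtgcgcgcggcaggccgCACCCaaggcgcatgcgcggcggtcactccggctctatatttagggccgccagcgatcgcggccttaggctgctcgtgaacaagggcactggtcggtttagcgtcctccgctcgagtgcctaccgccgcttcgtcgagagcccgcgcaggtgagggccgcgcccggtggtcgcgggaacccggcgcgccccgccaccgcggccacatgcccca
Uros first start: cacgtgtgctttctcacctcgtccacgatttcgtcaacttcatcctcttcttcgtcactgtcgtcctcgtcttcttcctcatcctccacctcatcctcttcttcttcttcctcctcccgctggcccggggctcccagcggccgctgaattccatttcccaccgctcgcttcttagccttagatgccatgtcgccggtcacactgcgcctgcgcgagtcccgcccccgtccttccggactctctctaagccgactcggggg
Uros second start: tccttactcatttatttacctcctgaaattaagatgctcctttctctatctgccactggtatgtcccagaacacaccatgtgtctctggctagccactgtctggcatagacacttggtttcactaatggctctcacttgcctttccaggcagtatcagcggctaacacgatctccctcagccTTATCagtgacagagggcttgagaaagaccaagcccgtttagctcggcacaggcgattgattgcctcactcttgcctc
Cpox: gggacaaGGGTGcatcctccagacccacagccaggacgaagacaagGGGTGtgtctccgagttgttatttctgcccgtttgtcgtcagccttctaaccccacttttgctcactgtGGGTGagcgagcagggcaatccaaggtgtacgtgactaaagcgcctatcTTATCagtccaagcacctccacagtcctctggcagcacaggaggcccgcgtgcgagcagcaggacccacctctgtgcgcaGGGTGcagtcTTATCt

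Alas2 held GATAA on the other strand, its first base 86 bases before the start (-86), and 3 CACCC matches side by side at -40, -35 and -30. The Alas1 window shown, that of its second start, held 1 CACCC match, at -203, and no GATAA. Around its first start, not shown, CACCC was at -228 and at 22, and GATAA was absent. Uros held GATAA only at its second start, at -68, and neither motif at its first. Both Uros windows lie inside the annotated gene, as does the Alas1 window shown. Cpox held GATAA at -86 and at 5, and CACCC at 4 places. The table gave windows of 300 bases (250 before to 50 after the start) for 8 of the 9 members, 11 windows in all. Over these 300 bases and both strands, GATAA was in 3 of the 11 windows (27.3%), against 25.4% of all 32851 windows, and CACCC in 7 of 11 (63.6%), against 57.5%. GGGCGG, a GC box, was in 8 of 11 (72.7%), against 35.7% of all windows, and CANNTG, an E-box, in 7 of 11 (63.6%), against 72.3%. TATAAA was in 1 of 11, that of Alas2 (13.6% of all windows). CAGTGN, the loop of an iron-responsive element, searched on the sense strand in the 50 bases after the start, was in 1 of 11, that of Alad (7.08%). In Alas2 the GGGCGG match, at -26, shares 1 base with the last CACCC match. These are matches of letters and were not tested as binding sites.

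The deposited table holds 1 mean per group, in FPKM (fragments scaled to transcript length and sequencing depth). For 4 groups, the spleen and liver Ter cells and the populations labelled MEP and CMP, each mean could be split into its 2 libraries, because it is the average of 2 whole numbers of fragments. They are called A, the deeper one, and B, and nothing ties them to a numbered replicate. Depth was 13410000 to 28540000 fragments a library. The control, HSC and CLP columns were made in another way and are given as the authors' means, with no error and no test. Tests were limma's on log2(FPKM + 1) of the 8 libraries and 13018 genes, and a gene was called with an adjusted p (Benjamini-Hochberg) under 0.05 and a change of at least 2-fold. Fold changes on this scale understate the change of low genes.

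Several libraries went against their labelled gates or stood apart. In the libraries labelled MEP, whose gate was labelled CD34+, Cd34 was at 0.111 and 0.0273 FPKM, and in those labelled CMP, whose gate was labelled CD34-, it was at 29.3 and 30.1. The column labelled MEP also held 84794 FPKM of S100a9, a neutrophil granulocyte gene, and 5 of 5 neutrophil markers summed to 119750 FPKM, against 2297 in CMP, 19118 in spleen Ter and 215 in liver Ter. Its 7 erythroid markers summed to 3.67 FPKM, with 1 of them, Epb42, under 0.1. Of these 7 markers, 6 could be split by library. They summed to 251 FPKM in spleen Ter library A and 7.03 in library B, against 2644 and 2691 in liver Ter. In the libraries labelled MEP they summed to 4.24 and 2.68, and in those labelled CMP to 18.4 and 9.84. Spleen library B was thus below both CMP libraries and above both MEP libraries. The 6 macrophage markers summed to 126 in spleen A and 956 in spleen B. The B cell markers summed to 1126 FPKM in the spleen Ter column, which the gate labels CD45- and Lin-, and to 1.42 in liver Ter. In the CD45+ spleen control they summed to 1538. The T cell markers summed to 183 FPKM in spleen Ter, 239 in the control and 0.0377 in liver Ter. Globin genes held 47.6% of all FPKM in liver Ter and 13.7% in spleen Ter. They held 0.326% in CLP, 0.122% in HSC and 0.0569% in the control, against 0.00227% in MEP and 0.00232% in CMP. In HSC and CLP the neutrophil markers summed to 8496 and 11593 FPKM, and the B cell markers to 361 and 485. In bulk samples, fewer cells of a type and less RNA per cell cannot be told apart. Where MEP and CMP are called progenitors below, the word follows their labels only.

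Alas2 (ENSMUSG00000025270, chrX:150547375-150570638, GRCm38) had the widest range of the 9 members, 9305-fold between the highest and lowest of the 7 means. It stood at 1632 and 1639 FPKM in the 2 liver Ter libraries, and at 366 and 32.3 in spleen Ter. The libraries labelled MEP held 0.135 and 0.249 FPKM and those of CMP 0.227 and 0.124. The liver value was split with a margin. Of the pairs of counts that gave the same mean, 3 lay within the range of A to B ratios of other genes. The pair nearest the median ratio was taken, and within that range library A can lie between 1500 and 1765 FPKM. The closeness of the 2 liver values thus partly follows from this choice. Liver libraries were thus above both spleen libraries, both spleen libraries were far above the progenitors, and MEP and CMP overlapped, on only 8 and 12 fragments (MEP) and 8 and 4 (CMP). The authors' means were 0.689 FPKM in the spleen control, 1.5 in HSC and 6.83 in CLP. On the log2(FPKM + 1) scale the difference of spleen Ter from liver Ter was -3.89 ± 0.96 (SE; limma adjusted p = 0.0102), and spleen Ter was higher than MEP by 6.54 ± 0.96 (0.00136) and than CMP by 6.56 ± 0.96 (0.00139). The sizes rested on which spleen library was used. With 1 of the 2 left out, the fit holds no spread of spleen Ter, so effect sizes alone are given. Without spleen library A the log2 fold changes were -5.62 against liver Ter, 4.81 against MEP and 4.83 against CMP. Without library B they were -2.16, 8.27 and 8.29.

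Alas1 (ENSMUSG00000032786, chr9:106233455-106248654) ran the other way. It was at 62.4 and 48.5 FPKM in CMP, 36.4 and 47.1 in MEP, 4.95 and 3.68 in spleen Ter, and 0.812 and 0.589 in liver Ter. No library of one of these 4 groups overlapped those of another, although MEP and CMP lay close, with a difference that was not called (log2 fold change -0.40 ± 0.22, limma adjusted p = 0.187) and that was 0.32 (0.422) with median-of-ratios scaling. The authors' means of 10.7 in HSC, 9.15 in CLP and 2.93 in the control lay between those of CMP and liver Ter. Alas1 was lower in spleen Ter than in MEP (log2 fold change -3.01 ± 0.22, limma adjusted p = 9.69e-05) and than in CMP (-3.41 ± 0.22, 6.44e-05). Its higher level in spleen than in liver Ter, a log2 fold change of 1.64 ± 0.22 (0.00069), depended on scaling. It was 0.97 (adjusted p = 0.0222) with median-of-ratios scaling and 0.58 (0.174) after quantile normalization, and neither was a call.

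The ratio of Alas2 to Alas1 thus set the Ter cells apart from the other groups. As log2, the spleen Ter libraries had 6.21 and 3.13 (4.67 ± 2.17, SD, n = 2) and the liver Ter libraries 10.97 and 11.44 (11.21 ± 0.33). The libraries labelled MEP had -8.07 and -7.57 (-7.82 ± 0.36) and those of CMP -8.10 and -8.61 (-8.36 ± 0.36). Libraries of the Ter groups did not overlap each other or the progenitors, whereas MEP and CMP nearly met, at -8.07 and -8.10. An exact permutation test of 2 libraries against 2, two-sided, gave p = 0.333 for each of the 6 pairs of groups, the smallest it can give, and so cannot reach 0.05. Alas2 made up 98.7% and 89.8% of the summed FPKM of both genes in spleen Ter and 99.95% and 99.96% in liver Ter. In MEP it made up 0.370% and 0.525%, and in CMP 0.363% and 0.255%. In the authors' means, it made up 42.7% in CLP, 19.0% in the control and 12.4% in HSC. These columns also held globin and markers of other cells, as given above, and the part of such cells in these shares was not tested.

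**Figure D1:**
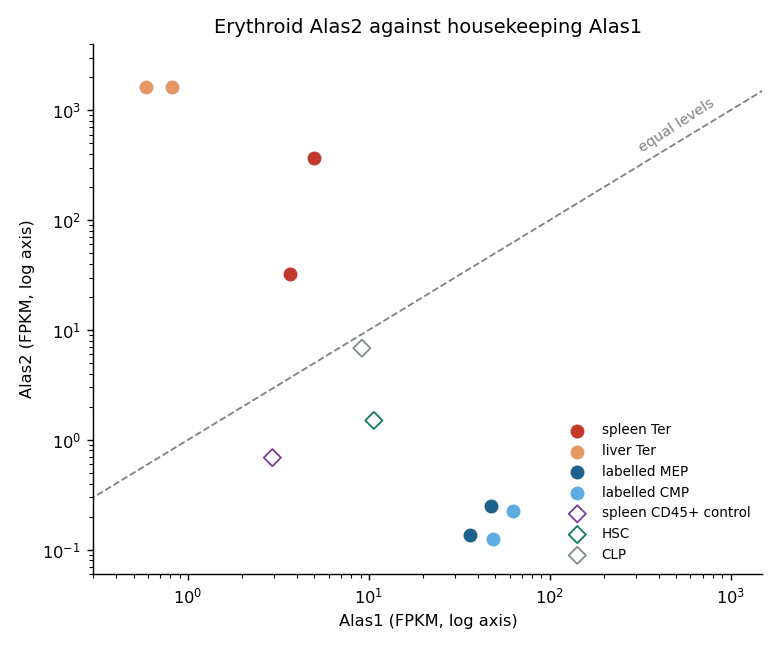
Alas2 (vertical, FPKM, log axis) against Alas1 (horizontal, FPKM, log axis). Filled points are the 2 libraries of a group and open diamonds are authors' means, and only the 4 Ter libraries lie above the dashed line of equal levels.

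Slc25a38 (ENSMUSG00000032519, chr9:120110374-120124504), the glycine carrier that feeds the first step, was at 72.7 and 74.0 FPKM in liver Ter, 11 and 12.6 in spleen Ter. The MEP libraries held 9.03 and 6.25 FPKM and the CMP libraries 6.81 and 7.33. Spleen Ter lay above both progenitors without overlap, by log2 fold changes of 0.58 ± 0.19 over MEP and 0.66 ± 0.19 over CMP, both under 2-fold. The difference from CMP was 1.17 (adjusted p = 0.00274) with median-of-ratios scaling and 1.12 (0.00348) after quantile normalization, each of them a call. Against liver Ter it was lower (-2.55 ± 0.19, limma adjusted p = 5.27e-05), the smallest drop among the 8 members that fell.

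The cytosolic enzymes differed in how far spleen Ter stood above the progenitors. Alad (ENSMUSG00000028393, chr4:62509169-62519918) was at 30.7 and 28.1 FPKM in spleen Ter, 420 and 384 in liver Ter. The MEP libraries held 2.08 and 2.0 FPKM and the CMP libraries 15 and 12.5. No 2 of these groups overlapped. It was called higher in spleen Ter than in CMP, by 1.05 ± 0.15 (limma adjusted p = 0.00112), a change just over 2-fold that fell to 0.99 without spleen library A and to 0.93 without CMP library B. Against MEP it was higher by 3.32 ± 0.15 (2.23e-05). Its authors' means of 10.4 to 16.3 FPKM in the control, HSC and CLP were close to the level in CMP.

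Uros (ENSMUSG00000030979, chr7:133686243-133710072) had the lowest spleen Ter mean of the 9 members. Its spleen libraries were at 5.33 and 2.40 FPKM, against 70.6 and 70.4 in liver Ter, and in spleen library A it was above Alas1 (4.95). The MEP libraries held 1.16 and 1.41 FPKM and the CMP libraries 2.43 and 2.75. The spleen libraries lay on either side of those of CMP. Spleen Ter exceeded MEP by 1.03 ± 0.29 (limma adjusted p = 0.0215), a call that was lost with median-of-ratios scaling (0.95, 0.0682), after quantile normalization (0.84, 0.149) and without spleen library A (0.58). Urod (ENSMUSG00000028684, chr4:116989965-116994413) was at 43.5 and 9.05 FPKM in spleen Ter, 407 and 404 in liver Ter. The MEP libraries held 7.60 and 7.86 FPKM and the CMP libraries 13.6 and 13.0. It was not called in spleen Ter against MEP (1.28 ± 0.60, limma adjusted p = 0.111) or CMP (0.57 ± 0.60, 0.448), and its spleen libraries lay on either side of CMP as well. Without spleen library B, the difference from MEP was 2.35.

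Of the mitochondrial enzymes, Cpox (ENSMUSG00000022742, chr16:58670292-58717636) showed the largest difference between the Ter groups. It was at 20.4 and 6.73 FPKM in spleen Ter and 639 and 631 in liver Ter, a log2 fold change of -5.63 ± 0.44 (limma adjusted p = 6.21e-05), while MEP held 2.73 and 3.20 and CMP 13.8 and 10.1. Spleen Ter was higher than MEP by 1.70 ± 0.44 (0.0149), and CMP lay between the spleen libraries. Without spleen library A, the change against MEP was 0.97, under 2-fold, and after quantile normalization it was 1.55 (adjusted p = 0.0554). Fech (ENSMUSG00000024588) was second to Alas2 among the members in the means of both Ter columns. It was at 90.7 and 14.7 FPKM in spleen, where Alad was above it in library B (28.1), and at 841 and 837 in liver. MEP had 4.94 and 5.30 and CMP 9.89 and 11.9. The spleen libraries were above all 4 progenitor libraries. The change against MEP was called (2.63 ± 0.71, limma adjusted p = 0.0180) and that against CMP was not (1.68 ± 0.71, 0.0837). Without spleen library A the change against MEP was 1.36 and without B it was 3.91. Without spleen library B, the change against CMP was 2.95.

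Ppox (ENSMUSG00000062729, chr1:171275990-171281186) was the one later enzyme with both spleen Ter libraries below both MEP libraries. It was at 11.2 and 11.4 FPKM in spleen Ter, 217 and 214 in liver Ter. The MEP libraries held 19.3 and 16.2 FPKM and the CMP libraries 8.22 and 9.26. The groups did not overlap, and MEP ranked second to liver Ter. Spleen Ter differed from MEP by -0.60 ± 0.14 (limma adjusted p = 0.0106), under 2-fold. Ppox was also the member with the largest positive difference of MEP over CMP, 0.94 ± 0.14 (0.00236), just short of 2-fold. It was 1.58 with median-of-ratios scaling, 1.45 after quantile normalization and 1.01 with a pseudocount of 0.1, each of them a call.

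**Figure D2:**
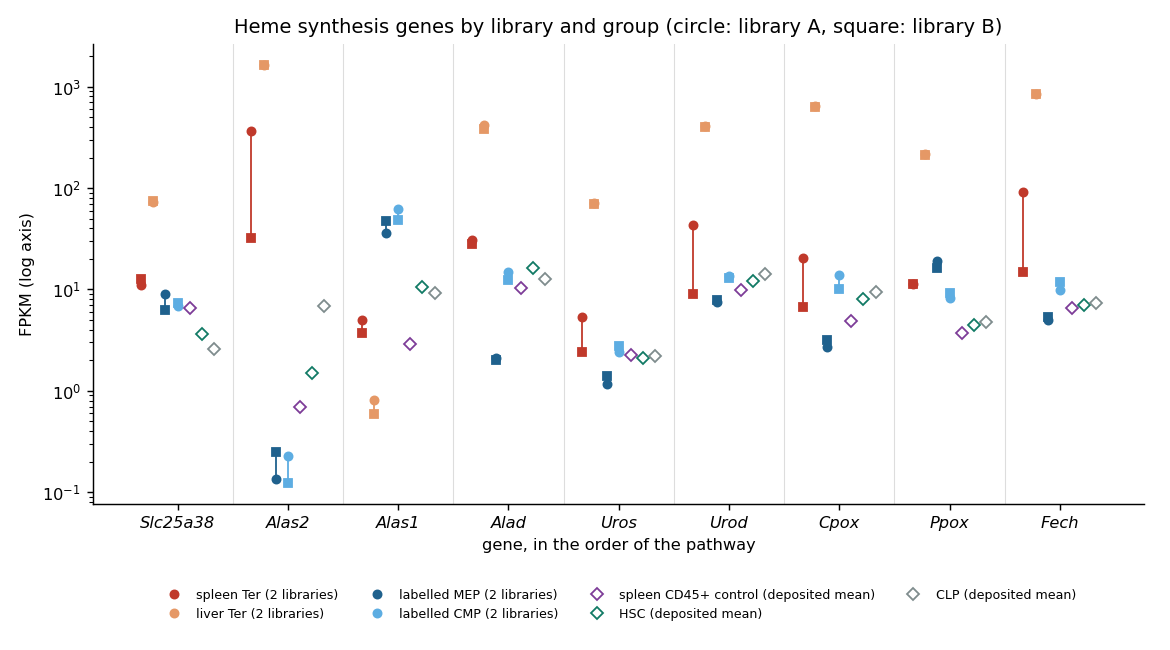
FPKM (log axis) of the 9 genes in the order of the pathway. Filled symbols joined by a line are the 2 libraries of a group and open diamonds are authors' means with no error. Liver Ter stands highest for every gene but Alas1, and the 2 spleen Ter libraries lie far apart for Alas2, Urod, Cpox and Fech.

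Counted over the members, spleen Ter against liver Ter gave all 9 called, 8 lower and 1 higher, Alas1, when 54.9% of the 13018 genes tested were called, 11.9% lower and 43% higher. The median log2 fold change was -3.95 over the members and 0.79 over all genes, and relative to that of all genes they ran from -3.34 for Slc25a38 to -6.42 for Cpox, with Alas1 at 0.84. In all 9 members the libraries of both groups did not overlap, as in 82.9% of genes. With median-of-ratios scaling, 8 of 9 were called, all lower, when 3132 of the 13018 genes were called lower, against 1546 without it. The share of higher calls among all genes called went from 78.4% to 53.3%. After quantile normalization that share was 48.3%, and again 8 members were lower, beside 3164 of all genes. Erythroid markers summed lower in spleen than in liver Ter, and B cell and neutrophil markers higher, by the sums given above. The 6 macrophage markers summed to 541 FPKM in the spleen Ter column and 8.49 in liver Ter. Their part in these differences was not tested.

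Against the libraries labelled MEP, spleen Ter had 5 of 9 members higher (Alas2, Alad, Uros, Cpox and Fech) and 1 lower (Alas1), when 42.9% of all genes were called, 23.3% higher and 19.6% lower. The libraries of all 9 members did not overlap, as in 75.5% of genes. With only these 2 groups in the fit, 2 were higher and 1 lower, and the same counts were found without either MEP library. The calls lost there were Uros, Cpox and Fech, whose log2 fold changes stayed about as large, at 0.95 to 1.10, 1.61 to 1.79 and 2.59 to 2.67. With median-of-ratios scaling 4 were higher, beside 2775 of all genes, and after quantile normalization 3, beside 2558, with 1 member lower in each. Against CMP, 2 were higher (Alas2 and Alad) and 1 lower (Alas1), when 42.3% of all genes were called, 14% higher and 28.3% lower. Libraries of 6 of 9 did not overlap, as in 74.1% of genes, the exceptions being Uros, Urod and Cpox. With median-of-ratios scaling or quantile normalization 3 were higher, Slc25a38 among them, and 1 lower. Of all 13018 genes, 2572 and 2094 were higher with these scalings. The comparisons of spleen Ter share their libraries. The median log2 fold change over the members was 1.28 against MEP and 0.57 against CMP, where that over all genes was 0.09 and -0.41.

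**Figure D3:**
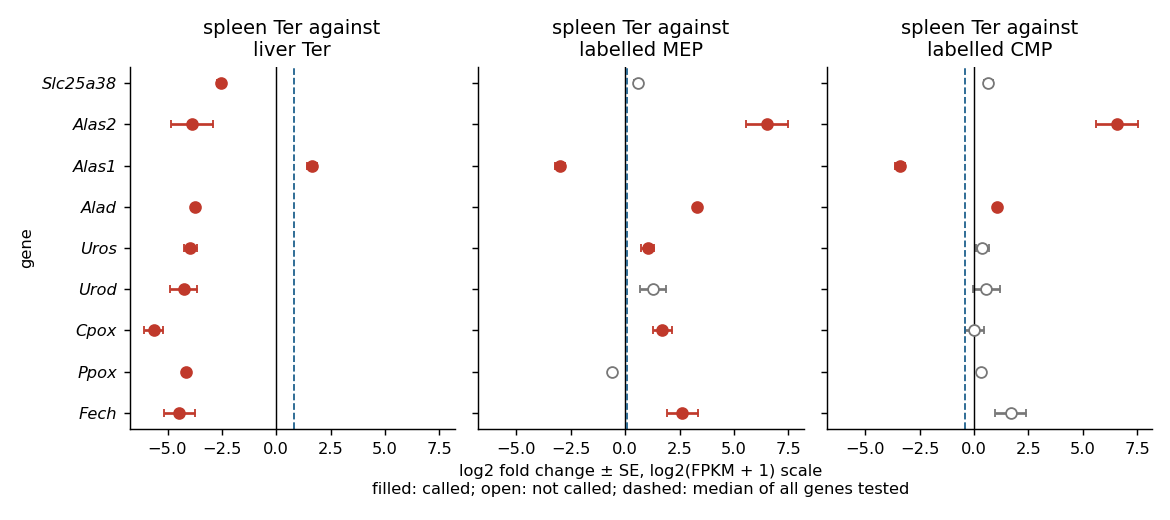
Log2 fold change ± SE of spleen Ter over liver Ter, MEP and CMP (log2(FPKM + 1) scale), with called genes filled and the median of all genes tested as a dashed line. Alas1 alone lies right of 0 against liver Ter and left of 0 by over 2-fold against MEP and CMP.

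Liver Ter had all members but Alas1 higher, 8 of 9, and Alas1 lower against MEP, when 42.4% of all genes were called, 8.94% higher and 33.5% lower. Against CMP, 60.3% of all genes were called, 7.13% higher and 53.2% lower. In neither comparison did libraries of a member overlap, as in 88.6% of genes against MEP and 91.1% against CMP. The changes of the 8 ran from 3.12 (Slc25a38) to 10.42 (Alas2) against MEP and from 3.20 (Slc25a38) to 10.44 (Alas2) against CMP. Between the progenitors, 2 of 9 members were lower in MEP than in CMP and none higher, when 31.9% of all genes were called, 24.5% lower and 7.43% higher. Libraries of 7 of 9 did not overlap, as in 83.2% of genes, the exceptions being Alas2 and Slc25a38. The 2 members called lower were Alad (-2.27 ± 0.15, limma adjusted p = 0.000186) and Cpox (-1.69 ± 0.44, 0.0193). The Cpox call was lost with median-of-ratios scaling (-1.02, limma adjusted p = 0.199) and after quantile normalization (-1.22, 0.141). It was also lost without any 1 of the 4 progenitor libraries, where the log2 fold change was -1.49 to -1.90. With either of those scalings Ppox was called higher, so that 1 member was higher and 1 lower. Of all genes, 1872 and 1558 were higher there.

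Over all 7 means, liver Ter was the highest column for 8 of 9 members, all but Alas1, as for 7.6% of the 16297 genes with at least 1 FPKM in a column, and for Alas1 it was the lowest. The spleen Ter mean was above those of the control, HSC and CLP for all members but Alas1, 8 of 9, as for 23.7% of these genes. The ratio of spleen Ter to the spleen control was 289 for Alas2, 8.01 for Fech, 3.04 for Ppox, 2.83 for Alad, 2.76 for Cpox, 2.66 for Urod, 1.79 for Slc25a38, 1.71 for Uros and 1.48 for Alas1. In spleen Ter, Alas2 made up 56.5% of the summed FPKM of the members and in liver Ter 38.2%. Alas1 made up 48.3% in MEP and 44.8% in CMP. The entry step was thus the most abundant transcript of the 9 in those 4 columns, through a different gene in the Ter columns than in those labelled MEP and CMP.

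The 2 spleen Ter libraries differed by member. Library A exceeded library B 11.3-fold for Alas2, 6.17-fold for Fech, 4.81-fold for Urod, 3.03-fold for Cpox and 2.22-fold for Uros. Alas1, Alad, Ppox and Slc25a38 differed by 1.34-fold or less. Over the 10707 genes at 1 FPKM or more, the median log2 ratio of A to B was -0.52, and Alas2, Fech and Urod lay at the 99.7, 99.4 and 99.1 percentiles of that ratio. In all, 22.1% of genes differed over 2-fold between the spleen libraries, against 0.576% for liver Ter, 0.953% for MEP and 1.9% for CMP. Klf1 was at 17.5 FPKM in A and 0.584 in B. C1qb, a macrophage gene, was at 54.6 and 414. The part of these cells in the members' values was not tested.

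**Figure D4:**
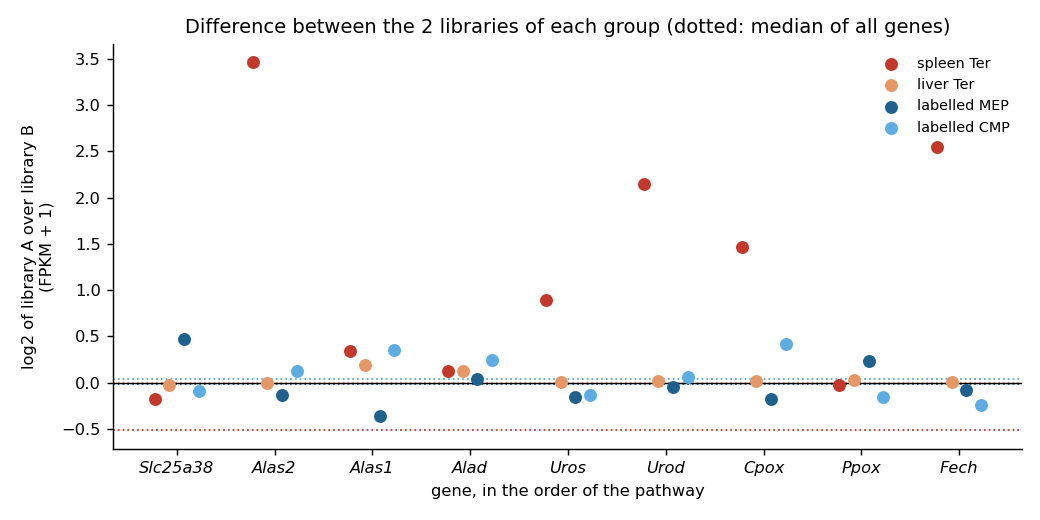
Log2 of library A over library B for the 9 genes in each group (FPKM + 1), with the median of all genes dotted. In spleen Ter, 5 genes lie over 0.8 (Alas2, Fech, Urod, Cpox and Uros) and the other 4 within 0.4 of 0. The points of the other groups lie within 0.5 of 0.

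Among genes with a similar course over the 8 libraries, likeness was Pearson's r of log2(FPKM + 1) over 7943 genes, given as a description. Among the 5 most like Alas2 were Arf5 (r = 0.994), Mad2l1bp (0.994), Tent5c (0.991) and March2 (0.989). Tent5c was at 50.2 FPKM in spleen library A and 9.89 in library B. Of the other members, Fech was most like Alas2 (0.946), then Alad (0.901), and Ppox least (0.753), while Alas1 had r = -0.968. The 5 most like Alas1 were Impa2 (0.996), Clec2d (0.995), Gbf1 (0.995), Ap3s1 (0.994) and Patl1 (0.993). The libraries share their groups, so these values mostly describe differences between 4 groups.

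Partner genes of heme synthesis were taken from lists ordered by role. In spleen against liver Ter, 30 of 33 such genes were tested, and 14 were lower and 6 higher, beside 11.9% of all genes lower and 43% higher. None of the 14 lower calls was lost where the gene was tested, although 1 of them left the test in 3 alternatives, at a minimum of 5 FPKM in 2 libraries and without liver Ter library A or B. By contrast, 4 of the 6 higher calls (Tspo, Slc25a28, Hmox1 and Flvcr1) were lost under median-of-ratios scaling or quantile normalization, and Hmox2 and Pgrmc1 were not. Of 7 tested genes of heme and iron transport of the mitochondrion, 5 were lower and 2 higher. Abcb10, which stabilises the iron importer mitoferrin, was at 6.58 and 3.11 FPKM in spleen and 164 and 161 in liver, a log2 fold change of -4.87 ± 0.29 (limma adjusted p = 2.25e-05). Tmem14c, which helps carry porphyrin precursors across the inner membrane, fell by 1.77 ± 0.14, while Tspo was higher by 1.26 ± 0.11. Slc25a28, the mitoferrin of non-erythroid cells, was higher by 1.26 ± 0.45 (limma adjusted p = 0.0412). It was at 7.35 and 23.4 FPKM in spleen and 4.91 and 4.97 in liver. Its call was lost in most alternatives, among them a fit of only the 2 groups compared (adjusted p = 0.111). Without spleen library B, the log2 fold change of Slc25a28 was 0.49. Slc25a39 was lower (-2.21 ± 0.42). Slc25a37, the erythroid mitoferrin, was at 41.1 and 6.54 in the spleen libraries and had an authors' mean of 1191 in liver Ter, which could not be split or tested. Of 7 genes of iron-sulphur cluster assembly, Glrx5, Hscb and Isca1 were lower and none higher, so that 3 of 7 were called, beside 54.9% of all genes. Iscu, the scaffold protein, was at 0.62 ± 0.17, not called. With median-of-ratios scaling, 6 of the 7 were lower, when 3132 of the 13018 genes were lower, against 1546 without it. Glrx5 stood at 190 and 77.4 FPKM in spleen and 387 and 417 in liver, and was higher in spleen Ter than in MEP by 3.42 ± 0.38 (limma adjusted p = 0.000403).

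Of 9 tested regulators, Fam210b, Eif2ak1 and Bach1 were lower in spleen than in liver Ter and Pgrmc1 was higher, so that 4 of 9 were called beside 54.9% of all genes. Eif2ak1, the heme-regulated kinase that slows translation when heme is short, was at 9.49 and 12.5 FPKM in spleen and 111 and 107 in liver, a log2 fold change of -3.20 ± 0.16 (limma adjusted p = 1.22e-05). Fam210b fell by 3.69 ± 0.30, and Pgrmc1, which binds FECH, was higher by 2.66 ± 0.18. Bach1, a heme-binding repressor, fell by 1.68 ± 0.23. With median-of-ratios scaling 7 of the 9 were lower, among them Clpx and Snx3, which turned from 0.04 and 0.02 to -1.10 and -1.22. That scaling moved all genes: 3132 of 13018 were lower, against 1546 without it, and their median log2 fold change went from 0.79 to 0.12.

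Of 7 tested genes of heme export, import and breakdown, 3 were lower and 3 higher, beside 11.9% of all genes lower and 43% higher. The log2 fold changes were -4.42 for Abcg2, -3.22 for Blvrb and -1.84 for Slc48a1. Those of the higher genes were 2.46 for Hmox1, 2.25 for Hmox2 and 1.58 for Flvcr1. Hmox1, which opens the heme ring and is strong in macrophages that clear red cells, was at 18.0 FPKM in spleen library A and 136 in library B, against 7.66 and 8.99 in liver Ter. It was higher by 2.46 ± 0.85 (limma adjusted p = 0.0370), a call that was lost in most alternatives. Among these was every other scaling (1.29, limma adjusted p = 0.132 with median-of-ratios scaling). Without spleen library B the log2 fold change of Hmox1 was 1.03. Its order between the spleen libraries was the reverse of that of Alas2 and the same as that of the macrophage markers. Over all genes at 1 FPKM or more, the median log2 ratio of A to B was -0.52, so most were higher in B. The part of macrophages in the Hmox1 values was not tested.

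All 3 genes of iron uptake by the erythroblast were lower in spleen than in liver Ter, when 11.9% of all genes were called lower. Tfrc, the transferrin receptor, was at 17.8 and 5.22 FPKM in spleen and 453 and 479 in liver, a log2 fold change of -5.43 ± 0.46 (limma adjusted p = 8.73e-05). Steap3, which reduces the iron, and Slc11a2, which carries it out of the endosome, had log2 fold changes of -3.53 ± 0.19 and -2.20 ± 0.17. The 5 erythroid transcription factors and the erythropoietin receptor Epor were all lower as well, beside that same 11.9% of all genes. They ran from Nfe2 (-3.25) to Tal1 (-5.62 ± 0.17) and Klf1 (-5.88 ± 1.02), with Epor at -4.98 ± 0.23. Gata1 was at 4.97 and 1.07 FPKM in spleen, 106 and 104 in liver, 1.18 and 0.674 in MEP and 7.71 and 4.34 in CMP. Klf1 was at 17.5 and 0.584 in spleen, 319 and 315 in liver, 1.57 and 0.944 in MEP and 5.76 and 2.68 in CMP. In spleen library B, Alas2 was at 32.3 FPKM where Klf1 was under every progenitor library and Gata1 under both of CMP.

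**Figure D5:**
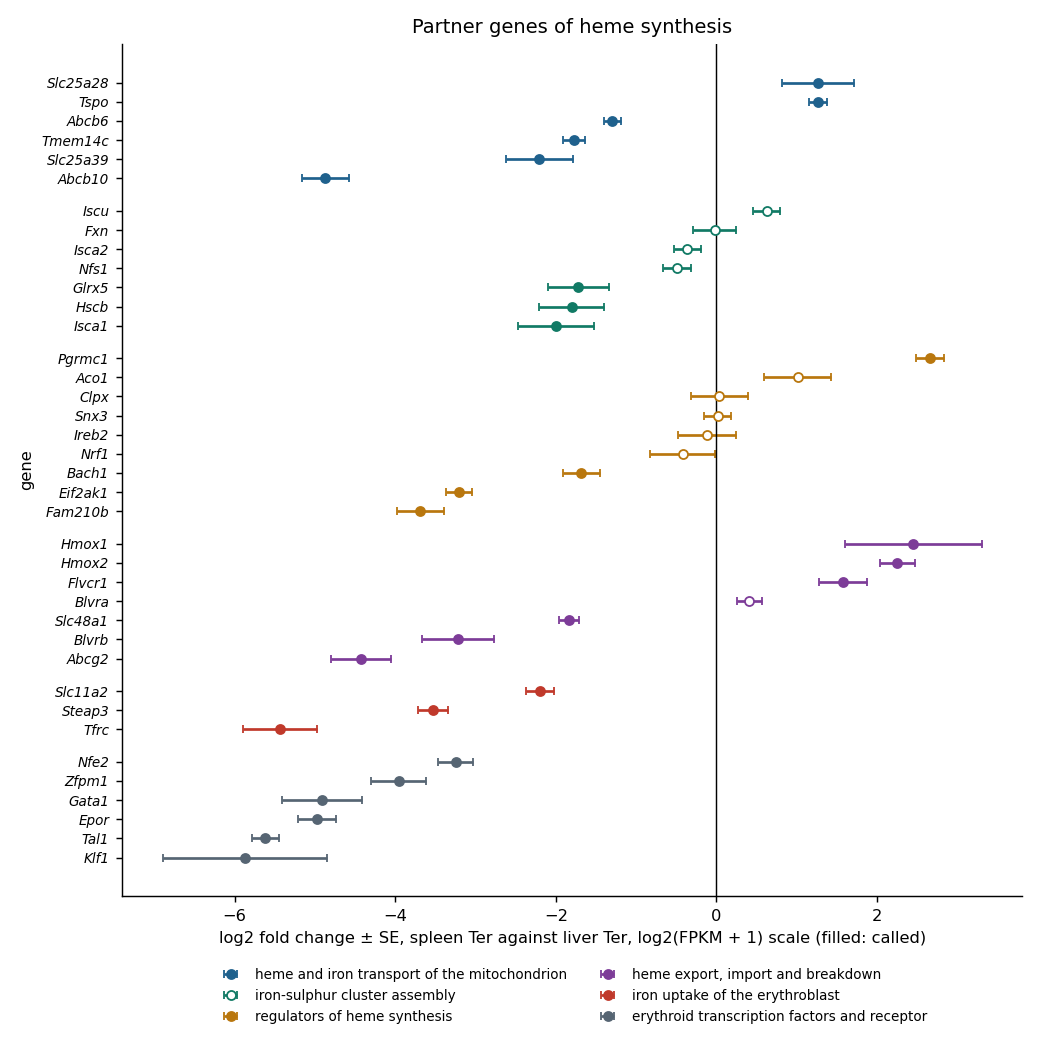
Log2 fold change ± SE of spleen over liver Ter for partner genes of 6 lists, with called genes filled and 1 tested gene not shown. All genes of iron uptake and all erythroid transcription factors lie left of 0, and the genes right of 0 that were called are Slc25a28, Tspo, Pgrmc1, Hmox1, Hmox2 and Flvcr1, of which Slc25a28, Tspo, Hmox1 and Flvcr1 lost the call under another scaling.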

How the data were processed

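The values were deposited by the authors as 1 FPKM mean per group, with genome build mm10 per the submitters' processing notes. No aligner, counter or annotation is given in the sources used here. Symbols and coordinates came from GENCODE M21 (GRCm38), promoters from RefSeq. The tests had been planned for values per sample, and the file turned out to hold means. For 4 groups the library values were recovered, by a method chosen after the data were seen, as the 2 whole fragment counts whose average gives the deposited mean: of 14049 genes whose mean reached 1 FPKM in 1 or more of the 4 columns, 13896 (98.91%) were recovered in all 8 libraries. Lengths of 2558 genes, among them Alas1, Cpox and Fech, were found from the values, since annotated ones gave no whole counts. Where several pairs gave a mean, those inside the central 99% of the group's A to B ratios, from genes with a single pair, were kept. The pair nearest the median ratio was then used, as for Alas2 in liver Ter. Alad and Fech in liver Ter had 1 pair in that range. Tested on simulated data, 98.98% of values were recovered, 2 of 7918 wrongly. In the control, HSC and CLP columns, 1.09% to 1.99% of low values fell on whole fragments, against 89.5% to 92.2% in the other 4, and processed pseudogenes held 6.1% to 8.02% of FPKM against 0.437% to 1.52%.

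Genes that reached 1 FPKM in 2 libraries went into limma 3.58.1 (R 4.3.3, eBayes with trend) on log2(FPKM + 1), each group having its own coefficient and the spread being shared. As that spread is pooled over groups, the SE of genes that differ between the spleen libraries can be too small for spleen Ter and too large elsewhere. With 1 library of a group left out, the fit holds no spread of that group. Calls that involve that group then do not measure its spread. Simulated libraries were all built from CMP means with 1 spread for every group. In them, 28% of genes changed 2-fold and 96% of those changed 4-fold were called, with 7 of 167 calls on unchanged genes (11108 genes). The real spleen Ter libraries differed over 2-fold in 22.1% of genes, against 1.9% for CMP. The simulated rates therefore need not hold for spleen against liver Ter. All 9 members passed the filter. Named genes are the members, up to 4 genes of each partner list with the largest spleen to liver change (all genes in lists of 4 or fewer), a fixed set (Slc25a37, Abcb10, Tmem14c, Hmox1, Gata1 and Klf1) and the 5 most like Alas1 and Alas2. Slc25a28, Tspo, Slc48a1, Flvcr1, Nfe2, Clpx, Snx3 and the markers Cd34, S100a9, Epb42 and C1qb were named after their values were seen. The members and lists were chosen with earlier results of these data known. The step between Alad and Uros and some genes that the rule for names takes are not reported here, and Ptprc is not analysed here. Alternatives were other scalings, filters and pseudocounts, single libraries left out and, chosen after seeing the data, other admissible count pairs and a fit without the libraries labelled MEP.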

Additional observations from a re-analysis of the deposited data

How the results depend on the processing

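Over 54 fold changes of members under 18 alternatives, 910 of 944 values stayed called or stayed uncalled, 24 were no longer called and 10 became calls. No called value changed direction. Among values that were not calls, 9 changed sign, 5 of them for Uros, Urod and Cpox in spleen Ter against CMP and 4 for Alas1, Alas2 and Slc25a38 in MEP against CMP. In the 3 comparisons with liver Ter the count of called members was 9 under every alternative run, except 8 in spleen against liver Ter with median-of-ratios scaling and with quantile normalization. Leaving out 1 library gave 3 to 7 in spleen Ter against MEP, 2 to 5 against CMP and 1 to 2 in MEP against CMP. Only the 2 groups compared gave 3 in spleen Ter against MEP, with fewer libraries behind the spread. Where the library left out was of a compared group, the fit held no spread of that group, so such counts do not measure it. Taking other admissible count pairs, or leaving out the 2 libraries labelled MEP, changed no count. With 1 FPKM added to both genes the log2 ratio of Alas2 to Alas1 fell in size to 9.91 for liver Ter, -5.16 for MEP and -5.58 for CMP, since one of the genes is then near the added value. With 1 library left out the ratio was 3.13 to 6.21 in spleen Ter, 10.97 to 11.44 for liver Ter, -8.07 to -7.57 for MEP and -8.61 to -8.10 for CMP. No paired analysis was possible because the recovered libraries carry no replicate number. Alas2 in MEP and CMP rests on 4 to 12 fragments a library, so a difference between them was not detectable at this depth.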
